A study of Mus musculus with 23 samples.

Results

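Glycolytic enzyme genes were followed through the postnatal maturation of the mouse prefrontal cortex. The set held 10 genes, named by enzyme and in pathway order Hk1, Pfkm, Pfkp, Aldoa, Pgk1, Pgam1, Eno1, Eno2, Ldha and Ldhb. A probe set, the group of array probes that reports 1 transcript, was taken when its only gene symbol was that of a member. Of the 10 genes, 9 had such probe sets, 19 in all among the 22690 on the array, and all 19 passed the filter on low values that left 16103 to be tested. Eno1, the enolase present in most cells, had none under its symbol and is not analysed here. Each gene was followed by its lead probe set, the one with the highest mean over all 23 arrays.

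The animals were male wild-type C57BL/6 mice bred in the submitters' colony, and no group was treated. They were taken at postnatal week 2 (6 mice), week 3 (4 mice), week 4 (4 mice), week 5 (5 mice) and week 10 (4 mice). Per the series' design text each array was a separate animal, and the labels give no litters. The frontal pole was removed with 1 coronal cut, so the sample is bulk tissue of all cell types ahead of that cut, in which fewer cells of a type and less RNA per cell cannot be told apart.

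Glycolysis splits glucose into pyruvate in the cytosol and yields ATP without oxygen. Lactate dehydrogenase, a tetramer of A subunits encoded by Ldha and B subunits encoded by Ldhb, converts pyruvate and lactate into each other, and tetramers rich in B subunits favour the use of lactate. In the brain, glucose is the main fuel of the adult, whereas suckling pups also burn ketone bodies and lactate from milk and blood, and several glycolytic steps have isozymes with different distributions among cells.

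Ldha was the member whose expression stood lower at the later ages, whereas Ldhb, its partner subunit, had no called change. The start regions of both genes are shown because the results turn on this pair. They are the RefSeq windows on GRCm38.p6 from 250 bases before to 50 bases after the annotated start, at chr7:46845554-46845853 on the plus strand for Ldha (the first of 2 windows) and at chr6:142507908-142508207 on the minus strand for Ldhb. Capitals mark ACGTG and its reverse complement CACGT, a form of the core bound by hypoxia-inducible factors and part of the E-box CACGTG, which MYC and related factors bind. The form GCGTG, present in both windows, was neither marked nor counted.
Ldha promoter: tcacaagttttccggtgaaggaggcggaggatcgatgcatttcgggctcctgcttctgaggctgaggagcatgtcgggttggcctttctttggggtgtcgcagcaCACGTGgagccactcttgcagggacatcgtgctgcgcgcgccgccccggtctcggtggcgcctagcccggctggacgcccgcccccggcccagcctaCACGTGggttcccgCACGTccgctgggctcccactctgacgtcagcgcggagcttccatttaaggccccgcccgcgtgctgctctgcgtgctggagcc
Ldhb promoter: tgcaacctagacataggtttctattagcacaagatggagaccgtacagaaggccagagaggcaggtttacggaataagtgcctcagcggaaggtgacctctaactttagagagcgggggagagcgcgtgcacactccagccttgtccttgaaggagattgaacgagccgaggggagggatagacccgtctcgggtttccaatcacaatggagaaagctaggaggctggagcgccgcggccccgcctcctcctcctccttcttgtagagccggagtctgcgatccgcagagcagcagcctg
The Ldha window held the marked form at 3 places, 2 of them the palindrome CACGTG, which reads the same on both strands. Counted on both strands that makes 5 matches, and 60 of 32851 windows of this length (0.183%) held at least as many. The second Ldha window and the Ldhb window held no ACGTG or CACGT. Among members, 8 of 19 windows held ACGTG on either strand, against 6447 of all 32851 windows (19.6%). By gene, 6 of 10 members held it in at least 1 window, and the share over all genes was not counted. A gene with more windows has more chances to hold it, and windows of 1 gene can overlap. The motif and the windows were chosen with the members' values known, and a match describes letters and shows no binding.

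The authors deposited log2 values, so a difference of 1 is a doubling, and the medians of the arrays lay between 6.15 and 6.27. Batch 2 held 2 mice of week 2 and 2 of week 5, and all others were in batch 1. There were 7 scan days, and for the most part age and scan day cannot be told apart. The 2 arrays of scan day 1, 1 of week 5 and 1 of week 10, came from another chip lot than all others. Week 3 filled scan day 6 alone, and week 4 shared scan day 5 with 1 array of week 5. Weeks 10 and 2 met only on scan day 4, with 1 array each. The actin control signal at its 3 prime end minus that at its 5 prime end, a sign of RNA integrity, averaged log2 values of 1.28 ± 0.23 at week 2, 1.18 ± 0.08 at week 3, 2.07 ± 0.38 at week 4, 1.42 ± 0.22 at week 5 and 1.56 ± 0.17 at week 10 (SD). Its part in the results was not tested beyond a fit that took this actin difference as a covariate. Neuronal markers were present, with a mean log2 level over 9 genes between 11.66 and 12.04 at the 5 ages, as were 2 measured genes of prefrontal projection neurons, with means between 9.23 and 9.42. Markers of the striatum, which lies behind the prefrontal cortex, were also present, with 3 of 6 listed genes measured at a mean of 8.80 ± 0.78 at week 2, 9.38 ± 0.35 at week 3, 9.24 ± 0.47 at week 4, 7.86 ± 1.76 at week 5 and 8.64 ± 0.97 at week 10 (SD).

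**Figure D1:**
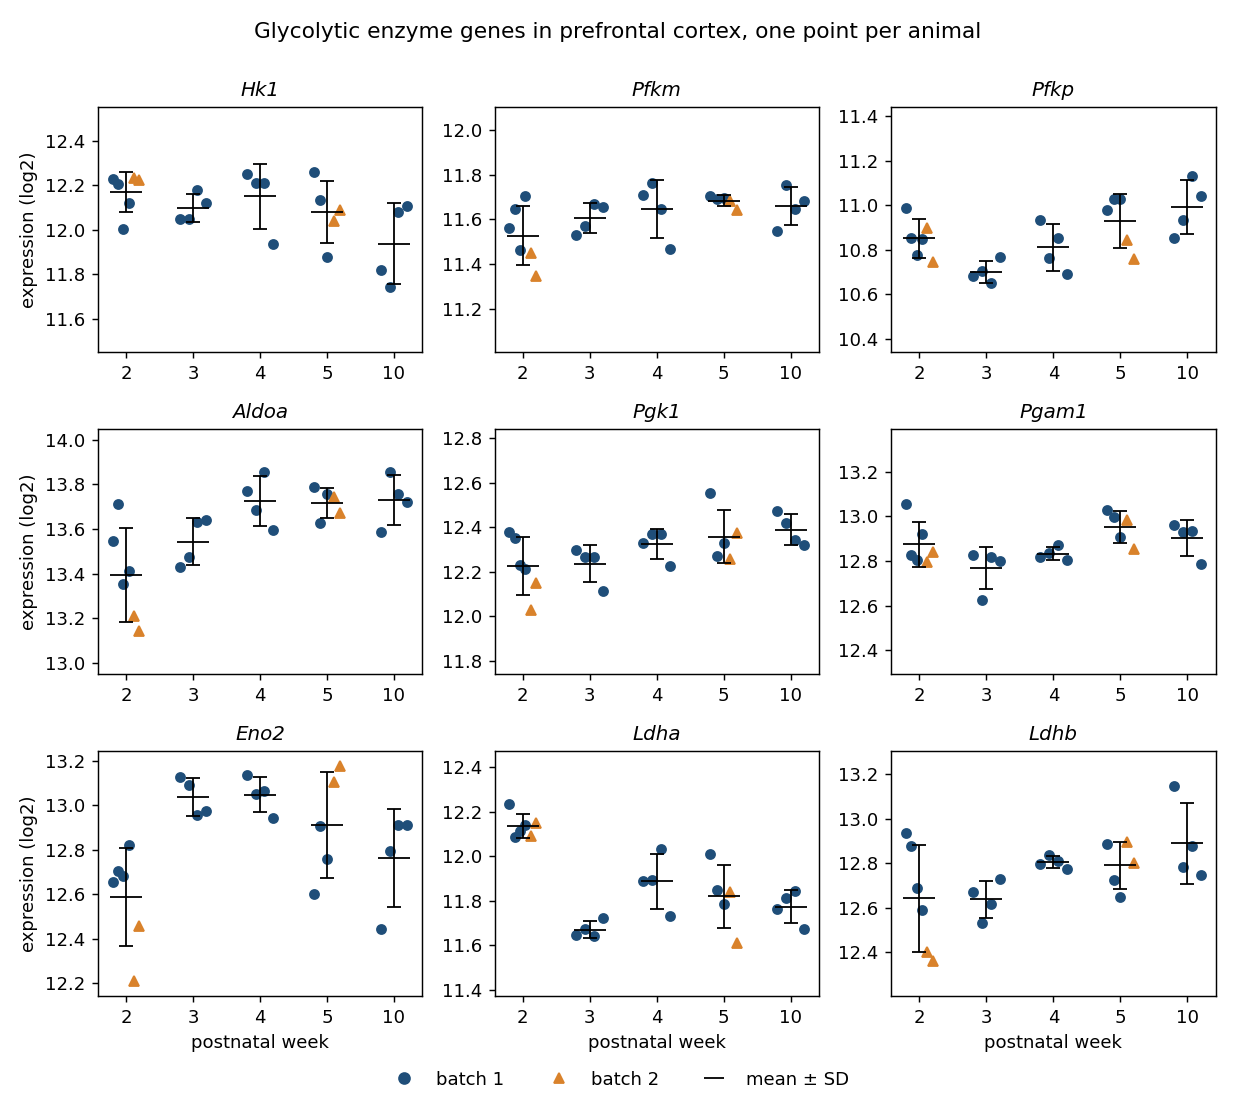
Log2 expression (vertical axis) of the lead probe set of each measured member against postnatal week (horizontal axis), 1 point per mouse, circles for batch 1 and triangles for batch 2, bars for mean ± SD. All panels span the same log2 range, and the Ldha points of week 2 lie above those of every other age.

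Over the 5 ages 4 of the 9 measured members differed by the moderated F-test of limma, Ldha (adjusted p = 2.98e-04), Aldoa (adjusted p = 0.0135), Pfkp (adjusted p = 0.0239) and Eno2 (adjusted p = 0.0273), where 31.6% of all tested probe sets did. With a random scan-day block, whether it replaced the batch term or joined it, Ldha still passed, whereas Aldoa, Pfkp and Eno2 did not (adjusted p of 0.0627, 0.435 and 0.0770 where it replaced batch). Between week 10 and week 2 the test called 1 member higher, Aldoa, and 1 lower, Ldha, at an adjusted p under 0.05. Of all tested probe sets 17.1% were called, 6.4% higher and 10.7% lower. The median size of the change, sign aside, was 0.17 on the log2 scale over the members and 0.17 over all tested probe sets. The median signed change was 0.10 over the members and -0.00 over all tested probe sets.

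**Figure D2:**
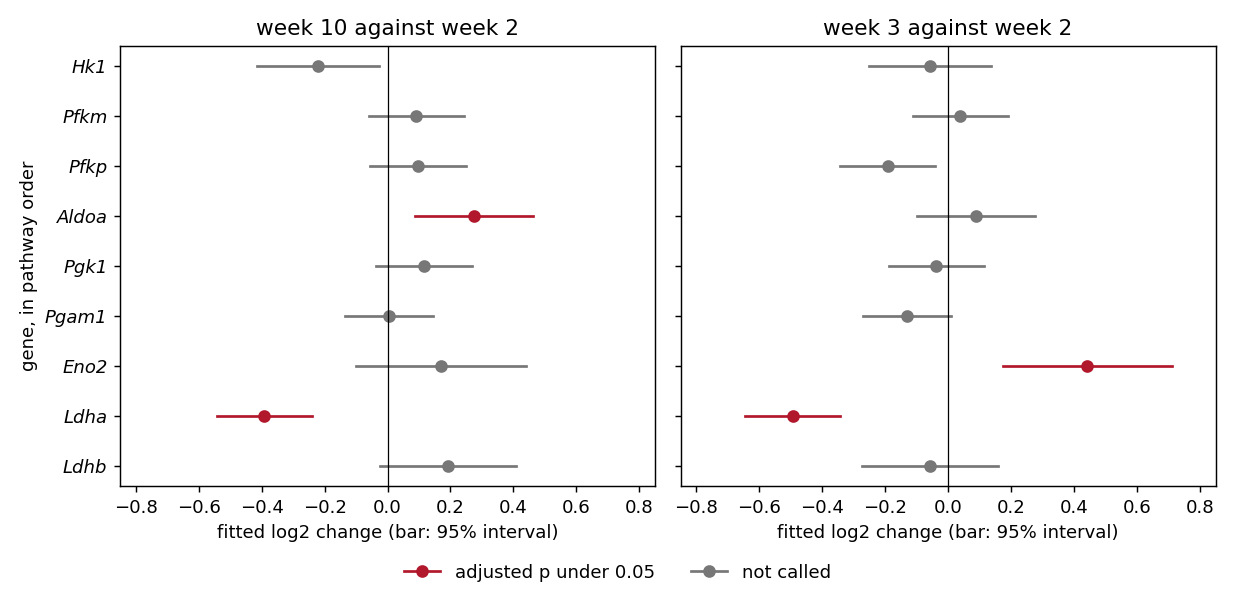
Fitted log2 change (horizontal axis) of each measured member in pathway order (vertical axis), week 10 against week 2 on the left and week 3 against week 2 on the right, with bars for the 95% interval and red for adjusted p under 0.05. Ldha is red on the left of 0 in both panels, Aldoa is red only at week 10 and Eno2 only at week 3.

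Hk1 encodes the hexokinase that phosphorylates glucose in most neurons and other brain cells. At week 10 its log2 values were 11.74, 11.82, 12.08 and 12.11, against a lowest of 12.00, a median of 12.21 and a highest of 12.23 among the 6 mice of week 2. The groups overlapped, with 2 of 4 mice of week 10 below every mouse of week 2. The fitted change was -0.22 (SE 0.09), with an unadjusted p of 0.0278 that did not pass adjustment (limma, adjusted p = 0.110). The other Hk1 probe set had a change of -0.43 (adjusted p = 0.135). Mean levels were 12.10 ± 0.06 at week 3, 12.15 ± 0.15 at week 4 and 12.08 ± 0.14 at week 5 (SD), all within the range of week 2.

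Phosphofructokinase commits fructose 6-phosphate to glycolysis, and Pfkm and Pfkp encode its muscle and platelet subunits, both present in brain. Pfkm averaged 11.53 ± 0.13 at week 2, 11.61 ± 0.07 at week 3, 11.65 ± 0.13 at week 4, 11.68 ± 0.02 at week 5 and 11.66 ± 0.09 at week 10 (SD). No change of Pfkm was called between any of the ages compared, and that of week 10 against week 2 was 0.09 (95% interval -0.06 to 0.24). Pfkp averaged 10.85 ± 0.09 at week 2, 10.70 ± 0.05 at week 3, 10.81 ± 0.11 at week 4, 10.93 ± 0.12 at week 5 and 10.99 ± 0.12 at week 10 (SD). Pfkp thus had its lowest level at week 3 and its highest at week 10, and neighbouring ages in that order overlapped in their values. Its 4 values of week 3, 10.65, 10.68, 10.70 and 10.77, overlapped those of week 2, which had a lowest of 10.74, a median of 10.85 and a highest of 10.99. The change of Pfkp at week 3 against week 2 was -0.19 (SE 0.07, adjusted p = 0.0778), and that of week 10 against week 2 was 0.10 (adjusted p = 0.388). Its second probe set had changes of -0.62 and -0.09 in these comparisons, and neither was called.

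Within each array the log2 difference Pfkm minus Pfkp averaged 0.67 ± 0.13 at week 10 (n = 4) and 0.68 ± 0.12 at week 2 (n = 6; SD). The means differed by -0.01, and the exact permutation test over 210 relabellings gave p = 0.933 (2-sided). At the ages between, the difference was 0.91 ± 0.08 at week 3, 0.84 ± 0.11 at week 4 and 0.76 ± 0.10 at week 5 (SD). The size of a within-array difference depends on the probes, so only its change with age is read.

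Aldoa encodes the main aldolase of muscle and neurons, which cleaves fructose 1,6-bisphosphate. Its log2 values at week 10 were 13.59, 13.72, 13.76 and 13.86, against a lowest of 13.14, a median of 13.38 and a highest of 13.71 among the mice of week 2. The groups overlapped, since 1 mouse of week 10 lay below the highest of week 2, and the mice of batch 2 were the lowest of week 2. Aldoa rose by 0.27 on the log2 scale (SE 0.09, 1.21-fold, limma adjusted p = 0.0404). The means were 13.40 ± 0.21 at week 2, 13.54 ± 0.11 at week 3, 13.73 ± 0.11 at week 4, 13.72 ± 0.07 at week 5 and 13.73 ± 0.11 at week 10 (SD). Weeks 4, 5 and 10 thus had nearly equal means, and no step between neighbouring ages was called for this probe set.

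Of the 3 other Aldoa probe sets, 2 were called higher at week 10 than at week 2, by 0.34 (adjusted p = 0.0109) and 0.41 (adjusted p = 0.00133), and in the set with the change of 0.41 the 4 mice of week 10 lay above all 6 of week 2. The remaining one had a change of 0.26 (adjusted p = 0.0906). All 4 carry the suffix that Affymetrix gives to sets in which some probes match other transcripts. The call of the lead probe set was lost with mice of batch 1 alone, where the change was 0.22 (adjusted p = 0.0994), in the fits with the actin covariate, with fixed scan-day terms and with batch 2 for week 2 animal 5, and in 9 of 23 fits that each left out 1 array. Those 9 arrays were week 2 batch 1 animals 5 and 6, week 2 batch 2 animals 1 and 2, week 5 batch 2 animals 2 and 4, and week 10 animals 6, 7 and 8, and without them in turn the adjusted p reached up to 0.119. Within batch 1 alone Aldoa was 0.22 higher at week 5 than at week 2, and within batch 2 it was 0.53 higher. On scan day 4 it was 0.31 higher in the single array of week 10 than in that of week 2.

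Pgk1 encodes phosphoglycerate kinase, the first ATP-forming step, and Pgam1 the phosphoglycerate mutase of brain and most other tissues. Pgk1 averaged 12.23 ± 0.13 at week 2, 12.23 ± 0.08 at week 3, 12.32 ± 0.07 at week 4, 12.36 ± 0.12 at week 5 and 12.39 ± 0.07 at week 10 (SD). The means of weeks 2 and 3 were equal to 2 decimals and those of weeks 4, 5 and 10 stood above them in the order of age, but the mice of neighbouring ages overlapped and the change of week 10 against week 2 was 0.12 (SE 0.07, adjusted p = 0.294). The other Pgk1 probe sets had changes of 0.15 and 0.20, and neither was called. Both carry the suffix described for Aldoa, given to sets in which some probes match other transcripts, and the lead set does not. Over the 5 ages the set with the change of 0.15 differed by the moderated F-test (adjusted p = 0.00402), as did 31.6% of all tested probe sets. In that set the change at week 4 against week 3 was 0.21 and was not called (limma, adjusted p = 0.0544). The lead set and the third Pgk1 set did not differ by the F-test (adjusted p of 0.186 and 0.0842). Pgam1 averaged 12.87 ± 0.10 at week 2, 12.77 ± 0.09 at week 3, 12.83 ± 0.03 at week 4, 12.95 ± 0.07 at week 5 and 12.90 ± 0.08 at week 10 (SD). Its change of week 10 against week 2 was 0.00 (95% interval -0.14 to 0.14, adjusted p = 0.972).

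Eno2 encodes gamma enolase, the neuron-specific form long used as a neuronal marker. Its 4 values at week 3 were 12.96, 12.97, 13.09 and 13.13, against a lowest of 12.21, a median of 12.67 and a highest of 12.82 among the mice of week 2. Every mouse of week 3 lay above every mouse of week 2. Of all tested probe sets 11.3% had no overlap between these ages in one direction or the other. Eno2 rose by 0.44 on the log2 scale (SE 0.13, 1.36-fold, limma adjusted p = 0.0236). It was 1 of 2 members called at week 3 against week 2, where 16% of all tested probe sets were called, 6.67% higher and 9.29% lower.

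At week 4 Eno2 had values of 12.94, 13.05, 13.06 and 13.13. The 5 values of week 5 were 12.60, 12.76, 12.91, 13.10 and 13.18, and those of week 10 were 12.44, 12.79, 12.91 and 12.91. Eno2 was thus at its highest mean at weeks 3 and 4. The mice of week 5 overlapped those of every other age, whereas every mouse of week 10 lay below every mouse of weeks 3 and 4 and within or above the range of week 2. No fit compared week 10 with week 3 or week 4 for Eno2. The share of all tested probe sets without overlap between those ages was not counted. Week 10 against week 2 gave a change of 0.17 (SE 0.13, adjusted p = 0.395). By batch, week 5 minus week 2 was 0.04 within batch 1 and 0.80 within batch 2. Within week 5 the 2 mice of batch 2 were the highest, and within week 2 the 2 mice of batch 2 were the lowest. With batch 1 alone the change at week 3 against week 2 was 0.32 and stayed called (adjusted p = 0.0315). The call was lost with scan day as a random block, at a change of 0.49 (adjusted p = 0.145), without week 3 animal 2 and without week 3 animal 3.

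Markers of other cells moved over the same interval. The mean level of 6 oligodendrocyte genes ran between 12.01 and 12.25 at week 3, against 10.70 and 11.90 at week 2. Of these 6, 2 were called higher, against 6.67% of all tested probe sets. The mean of 9 neuronal genes ran between 11.88 and 11.96 at week 3, against 11.89 and 12.21 at week 2. Of these 9, 2 were called higher and 3 lower, against 6.67% and 9.29% of all tested probe sets, with a median change of -0.26. The mean of the 3 striatal genes ran between 8.86 and 9.57 at week 3, against 7.73 and 9.49 at week 2, with a median change of 0.90 and none of the 3 called. The part of these markers in the Eno2 result was not tested.

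Ldha had the lowest adjusted p of the members by the F-test. Its log2 values at week 2 had a lowest of 12.09, a median of 12.13 and a highest of 12.23 among 6 mice. At week 3 the 4 mice had 11.64, 11.64, 11.67 and 11.72, at week 4 they had 11.73, 11.89, 11.89 and 12.03, and at week 5 the 5 mice had 11.61, 11.79, 11.84, 11.85 and 12.01. The 4 mice of week 10 had 11.67, 11.76, 11.81 and 11.84. Every one of the 17 mice aged 3 weeks or more lay below every mouse of week 2. The share of all tested probe sets that set week 2 apart from all later ages was not counted. For single pairs of ages, 14.7% had no overlap between weeks 10 and 2, and 11.3% between weeks 3 and 2. The means of Ldha were 12.14 ± 0.05 at week 2, 11.67 ± 0.04 at week 3, 11.89 ± 0.12 at week 4, 11.82 ± 0.14 at week 5 and 11.77 ± 0.07 at week 10 (SD). In rising order they ran week 3, week 10, week 5, week 4 and week 2, and the mice of neighbouring ages overlapped in that order except between weeks 4 and 2.

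Ldha fell by 0.39 on the log2 scale at week 10 against week 2 (SE 0.07, 1.31-fold lower, limma adjusted p = 7.41e-04). The groups did not overlap, as in 14.7% of tested probe sets. At week 3 against week 2 it fell by 0.49 (SE 0.07, 1.41-fold lower, adjusted p = 3.28e-04). Week 4 stood above week 3 in every mouse, by 0.22 (SE 0.08), but this change was not called (adjusted p = 0.0699). Of all tested probe sets 11.4% were called between weeks 4 and 3, 4.87% higher and 6.55% lower, and 19.2% did not overlap. No member was called there (limma, 1 of 9 at an unadjusted p under 0.05), although all 9 fitted changes were above 0, with a median of 0.09 against 0.04 over all tested probe sets. The values of the lead probe set of Ldhb too did not overlap between the 2 ages. The other Ldhb probe sets overlapped there, with changes of 0.01, -0.02 and 0.02.

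Both falls of Ldha kept their direction and their call under every alternative tried and in each of the 23 fits that left out 1 array. Ldha had a single probe set, so the mean of all probe sets was the same value for it. No second probe set of Ldha was there to compare. The change of week 10 against week 2 lay between -0.52 and -0.34, with an adjusted p of at most 0.0113, and that of week 3 against week 2 between -0.53 and -0.39, with an adjusted p of at most 0.0320. Within batch 1 Ldha was lower at week 5 than at week 2 by a difference of -0.26, and within batch 2 by -0.40. On scan day 4 it was 11.67 in the array of week 10 and 12.14 in that of week 2. On scan day 7 it was 11.61 in the array of week 5, against 12.09 and 12.15 in the 2 arrays of week 2. At week 3, which had a scan day of its own, a difference between days cannot be told apart from the change with age.

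Genes of immature neurons fell over the same weeks. Of 5 such genes 4 were called lower at week 10 than at week 2, and their mean level lay between 9.02 and 9.36 at week 10, against 10.88 and 11.46 at week 2. At week 3 all 5 were called lower than at week 2, with a mean level between 10.04 and 10.28 at week 3. Genes of endothelium and pericytes averaged 7.02 ± 0.09 at week 10 and 7.58 ± 0.12 at week 2 (SD), with 4 of 6 called lower. Lower calls made up 10.7% of all tested probe sets at week 10 and 9.29% at week 3. Other cell lists moved too at week 10 against week 2. Of 9 neuronal genes 3 were called lower and 1 higher, and of 9 astrocyte genes 3 lower and 2 higher. Among 2 genes of oligodendrocyte precursors 1 was called lower, among 5 of microglia 1 higher, and among 6 of oligodendrocytes none. The part of any of these cell types in the fall of Ldha was not tested.

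Ldhb had log2 values of 12.75, 12.78, 12.88 and 13.15 at week 10, against a lowest of 12.36, a median of 12.64 and a highest of 12.93 among the mice of week 2. The groups overlapped, and the change of 0.19 (SE 0.10) was not called (adjusted p = 0.217). When a random scan-day block replaced the batch term the change was 0.30 and was called (adjusted p = 0.0430). The other Ldhb probe sets had changes of 0.07, 0.11 and 0.19, and none was called. Within week 2 the 2 mice of batch 2 had the lowest values of Ldhb, and week 5 minus week 2 was -0.02 within batch 1 and 0.47 within batch 2. At week 3 the mean was 12.64 ± 0.08, at week 4 it was 12.80 ± 0.03 and at week 5 it was 12.79 ± 0.11 (SD).

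The balance of the 2 subunit transcripts was read as the log2 difference Ldha minus Ldhb within each array. At week 10 it was -1.38, -1.07, -1.04 and -0.97, against a lowest of -0.79 and a highest of -0.21 among the 6 mice of week 2. Every mouse of week 10 lay below every mouse of week 2. The means were -1.12 ± 0.18 at week 10 (n = 4) and -0.51 ± 0.22 at week 2 (n = 6; SD). They differed by -0.61, with an exact permutation p of 0.00476 (2-sided, 210 relabellings) and 0.00952 after adjustment over the 2 pairs tested. The unadjusted p is the smallest that an exact test of 4 against 6 mice allows.

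The 3 ages between had means of -0.97 ± 0.07 at week 3, -0.92 ± 0.11 at week 4 and -0.97 ± 0.15 at week 5 (SD). With batch 1 alone the means were -1.12 at week 10 and -0.63 at week 2, and their difference of -0.49 gave p = 0.0286, the smallest that an exact test of 4 against 4 mice allows, and 0.0571 after adjustment. The mean of all probe sets of each gene, in which Ldha kept its single probe set, gave a difference of -0.51 with the same adjusted p as the lead probe sets. Both rest on the smallest p that 4 against 6 mice allow, so the equal values do not compare the sizes of the differences. The difference contains the fall of Ldha described above, set beside the level of Ldhb on the same arrays.

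**Figure D3:**
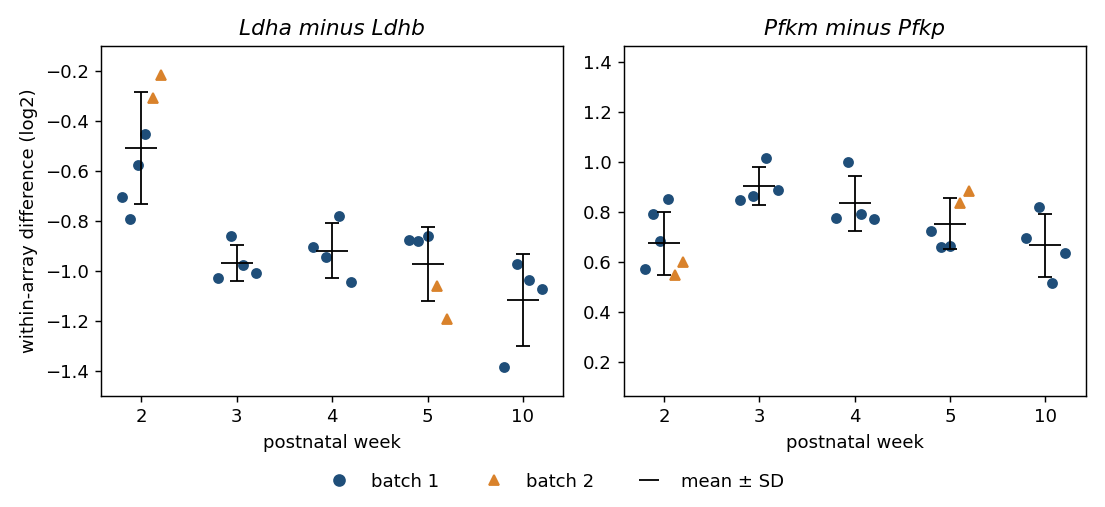
Within-array log2 difference (vertical axis) of Ldha minus Ldhb on the left and Pfkm minus Pfkp on the right against postnatal week (horizontal axis), 1 point per mouse, circles for batch 1 and triangles for batch 2, bars for mean ± SD. The Ldha minus Ldhb points of week 10 lie between -1.38 and -0.97, below all 6 of week 2, while the Pfkm minus Pfkp means of weeks 10 and 2 are 0.67 and 0.68.

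After week 4 no member was called. Between weeks 5 and 4, 0.0745% of all tested probe sets were called, 0.0186% higher and 0.0559% lower, and 3.3% had no overlap while every member had some. Among the members 2 of 9, Pfkp with a change of 0.17 and Pgam1 with one of 0.15, had an unadjusted p under 0.05 (limma). Between weeks 10 and 5, 0.0311% of all tested probe sets were called, 0.0124% higher and 0.0186% lower, and 1.56% had no overlap, and no member lacked overlap or reached an unadjusted p under 0.05 (limma). Of the 9 fitted changes between weeks 10 and 5, 7 were below 0, with a median of -0.07 against 0.01 over all tested probe sets.

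Across the 23 arrays the members did not move as 1 block. The highest correlations of log2 values were between Pfkm and Aldoa (r = 0.81) and between Pgk1 and Ldhb (r = 0.74), and the lowest was between Eno2 and Ldha (r = -0.58). Ldha and Ldhb had r = -0.11. The arrays share ages, batches and scan days, so these values describe the arrays and carry no test. Among 9196 other genes the 5 most like Ldha over the arrays were Thra, which encodes a thyroid hormone receptor (r = 0.887), Cdh13, a cadherin (r = 0.885), Eri3, an exonuclease (r = 0.873), Eif3l, a subunit of a translation initiation factor (r = 0.872), and Nf2, which encodes merlin (r = 0.867). Their fitted changes at week 10 against week 2 were -0.42 for Thra, -0.96 for Cdh13, -0.29 for Eri3, -0.35 for Eif3l and -0.48 for Nf2. Since the genes were picked for their likeness to Ldha on these same arrays, the shared direction largely follows from the choice.

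Other enzymes of glycolysis included 10 tested genes of 18 listed, with a median change of 0.25 at week 10 against week 2. There 3 were called higher and 2 lower, against 6.4% and 10.7% of all tested probe sets. Aldoc, the aldolase of astrocytes and some neurons, had 12.91 ± 0.04 at week 10 and 12.40 ± 0.17 at week 2 (SD), a rise of 0.46 (limma adjusted p = 8.17e-04). Pkm, pyruvate kinase, had 12.31 ± 0.08 at week 10 and 12.00 ± 0.19 at week 2 (SD), a rise of 0.28 (adjusted p = 0.0483) that stayed called in 2 of 23 fits with 1 array left out. The third called higher was the triosephosphate isomerase gene Tpi1, by 0.28 (adjusted p = 0.0144), named here beyond the rule to complete the count. The 2 called lower were the dimly expressed Pgam2, the muscle phosphoglycerate mutase (-0.75, adjusted p = 0.0173), and Hkdc1, a hexokinase domain protein (-0.70, adjusted p = 0.0322), whose call was kept in 7 of 14 alternatives. At week 3 against week 2 the liver-type phosphofructokinase gene Pfkl was the single gene of this list called, higher by 0.46 (adjusted p = 0.0338). Higher calls made up 6.67% of all tested probe sets at that step, and lower calls 9.29%.

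Of the enzymes that set the level of fructose 2,6-bisphosphate, the activator of phosphofructokinase, 2 of 5 were tested and neither was called. Pfkfb3 had a change of 0.40 (adjusted p = 0.113) and Pfkfb2 one of -0.06 (adjusted p = 0.846).

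Transporters of glucose and lactate were all measured, with a median change of -0.24 at week 10 against week 2. None of 7 was called higher and 3 were called lower, against 6.4% and 10.7% of all tested probe sets. Slc16a1, the monocarboxylate transporter MCT1 that carries lactate, pyruvate and ketone bodies, had 9.49 ± 0.14 at week 10 and 11.35 ± 0.06 at week 2 (SD), and fell by 1.90 (limma adjusted p = 1.97e-09). Slc2a3, the neuronal glucose transporter GLUT3, had 10.97 ± 0.03 at week 10 and 11.60 ± 0.10 at week 2 (SD), and fell by 0.63 (adjusted p = 2.59e-06). Bsg, basigin, the chaperone of MCT1, fell by 0.49 (adjusted p = 0.00758). At week 3 against week 2 Slc16a1 fell by 1.00 and was the single gene of the list called lower. The 1 called higher was Slc2a4, by 0.19 (adjusted p = 0.0447), which encodes the insulin-responsive transporter GLUT4 and was near the lower end of the log2 scale. Between these ages 6.67% of all tested probe sets were called higher and 9.29% lower.

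Pyruvate enters mitochondria through the pyruvate carrier and the pyruvate dehydrogenase complex, which pyruvate dehydrogenase kinases inhibit. Of 9 tested genes 1 was called higher and 2 lower at week 10 against week 2, against 6.4% and 10.7% of all tested probe sets. Their median change was -0.12. The kinase gene Pdk2 rose by 0.50 (adjusted p = 0.0145), and the genes of both E1 subunits of the complex were lower, Pdha1 by a change of -0.28 (adjusted p = 0.0156) and Pdhb by one of -0.25 (adjusted p = 0.0160). The calls of Pdha1 and Pdhb were lost when the arrays were centred on their medians.

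In side paths of glucose carbon some genes were called at week 10 against week 2. Over all tested probe sets 17.1% were called there, 6.4% higher and 10.7% lower. In the pentose phosphate pathway 1 of 6 tested genes was called, Pgls, 6-phosphogluconolactonase, which had 7.08 ± 0.15 at week 10 and 7.97 ± 0.05 at week 2 (SD), and fell by 0.88 (adjusted p = 2.53e-05). Among 10 genes of glycogen metabolism the branching enzyme gene Gbe1 fell by 0.67 (adjusted p = 0.00307; -0.29 and not called with fixed scan-day terms, adjusted p = 0.308), and Ugp2, which makes UDP-glucose, rose by 0.33 (adjusted p = 0.0174). Ppp1r3c, a glycogen-targeting phosphatase subunit, was called higher by 0.42 at an adjusted p of 0.0496, and kept the call in 5 of 23 fits with 1 array left out. Among 7 genes of the shuttles that carry cytosolic reducing power into mitochondria, Gpd1, glycerol 3-phosphate dehydrogenase, rose by 0.87 (adjusted p = 7.01e-05), and Slc25a11, the oxoglutarate carrier, was called lower by a change of -0.25 (adjusted p = 0.0429) with the call kept in 13 of 23 such fits. The median change was -0.09 over the pentose phosphate genes, 0.05 over the glycogen genes and 0.01 over the shuttle genes.

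At week 3 against week 2, 6.67% of all tested probe sets were called higher and 9.29% lower. The pyruvate genes had none of 9 called higher and 2 lower, Pdha1 (-0.36) and the mitochondrial pyruvate carrier gene Mpc1 (-0.34). The pentose phosphate genes had none of 6 called higher and 2 lower, Pgls (-0.58) and Pgd (-0.47), the gene of 6-phosphogluconate dehydrogenase. The glycogen genes had none of 10 called higher and 2 lower, Gbe1 (-0.54) and the brain glycogen phosphorylase gene Pygb (-0.34). Of 7 shuttle genes Gpd1 was called higher (0.68) and Slc25a11 lower (-0.36). Pfkl, Slc2a4, Mpc1, Pgd and Pygb are named beyond the rule, after their values were seen. Of the genes of these lists called at week 3, Slc16a1 and Gpd1 kept the call with scan day as a random block, and Pfkl, Slc2a4, Mpc1, Pdha1, Pgls, Pgd, Gbe1, Pygb and Slc25a11 did not.

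**Figure D4:**
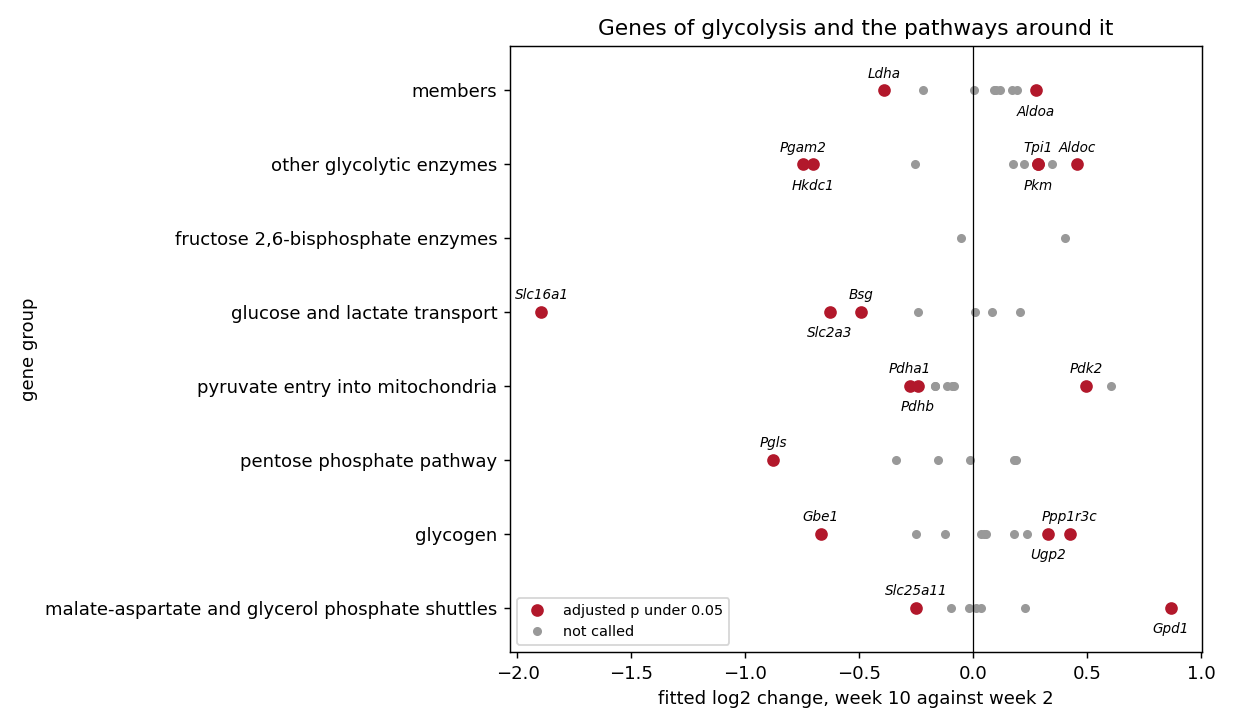
Fitted log2 change of week 10 against week 2 (horizontal axis) of each tested gene, by gene group (vertical axis), red with its name where the adjusted p was under 0.05 and grey otherwise. The members lie between -0.39 and 0.27, and the point farthest from 0 is the transporter gene Slc16a1.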

How the data were processed

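RNA from mouse prefrontal cortex was hybridised to Affymetrix MOE430A arrays. The authors deposited log2 values made with GCRMA, per the submitters' processing notes, a method that corrects background by probe sequence, normalises quantiles between arrays and summarises probe sets. Its version is not given in the sources used here. Scan day and chip lot came from the deposited scanner records. Arrays hold no counts, and precision is limited by how many there are.

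The log2 values were used as deposited, all 23 columns were matched to a sample, and testing required 4 or more arrays with a log2 value of 4 or more, met by 16103 of 22690 probe sets (71.0%). Symbols came from the platform table and were brought up to date with RefSeq (GRCm38.p6). Age and batch came from the titles. The labels of week 2 animal 5 disagree, with batch 1 in the title, which was followed, and batch 2 in the description. Week 5 animal 2 occurs in both batches and was counted as 2 mice.

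All 23 arrays entered 1 fit in limma 3.58.1 (R 4.3.3; lmFit and eBayes, 2-sided) with age means and a batch term, adjusted over all tested probe sets by Benjamini-Hochberg, with calls at an adjusted p under 0.05. On simulated data for week 10 against week 2 (16103 probe sets) the fit recovered 64 of 100 changes of 0.5 on the log2 scale and 91 of 100 changes of 1, and 5.49% of calls were false. The simulated noise was independent between arrays, with no scan-day or batch effect, so these rates do not describe data that hold such effects. Isozyme pairs were tested by exact permutation; Eno1 minus Eno2 was left out, so p-values were adjusted over 2 pairs in place of the 3 planned.

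The rule named all members by their lead probe sets. From each list of pathway genes it took the called genes, at most 4, that changed most at week 10 against week 2, and where there were none the 2 of highest mean level. It also named for Ldha the 5 genes most correlated with it. The members and lists were chosen with earlier results of these data known. Same-numbered mice of different ages did not deviate together (25 pairs, r between -0.32 and 0.35, median 0.02). Alternatives covered the batch term, scan day, scaling, the filter, the summary of probe sets, the actin difference, the animal number and leaving out each array. Figures were drawn with matplotlib 3.10.9 in Python 3.11.15.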

Additional observations from a re-analysis of the deposited data

Results flagged for a closer look

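Among 45 groups of a member and an age, 2 held a mouse set apart from the others of its age, and by chance about 1 in 20 such groups is expected to. Hk1 was 11.93 in week 4 animal 6, against 12.21 to 12.25 in the other 3 mice of that age. Pgam1 was 12.63 in week 3 animal 3, against 12.80 to 12.83 in the other 3. In each case the mouse was the lowest of its age, and neither gene was called in a comparison with these ages.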

How the results depend on the processing

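No called change of a member reversed under any alternative run. Over the fitted changes of members, 602 of 612 values under alternatives and 1023 of 1035 without 1 array stayed on their side of the threshold; the sign turned in 59 and 21 of them, none called in either fit. Of the 2 members called at week 10 against week 2, 1 was left (Aldoa lost) with batch 2 for week 2 animal 5, with fixed scan-day terms (week 3 left out), with the actin covariate, with batch 1 alone, which was chosen after seeing the data, and with animal number as a replicate block, where Aldoa had 0.35 (adjusted p = 0.0523); leaving out 1 array gave 1 to 2. At week 3 against week 2, 1 of 2 was left (Eno2 lost) with a random scan-day block in place of batch or beside it (correlation 0.323 and 0.283), and 1 to 2 without 1 array. At week 4 against week 3, 1 was called in place of 0 with median-centred arrays (Ldha, 0.27, adjusted p = 0.0340), and 0 to 1 without 1 array, the 1 without week 4 animal 6. By the F-test 4 members became 1 (Ldha) with either scan-day block and with the replicate block, 3 with no batch term and with scan days 6 and 7 as 1 term (Pfkp lost), 3 with the actin covariate (Eno2 lost) and with batch 1 alone (Aldoa lost), and 3 without week 3 animal 2, 3 or 5 (Pfkp lost; 3 to 4 over all such fits); with the mean of a gene's probe sets Pgk1 took the place of Pfkp. With fixed scan-day terms, over 4 ages without week 3, Ldha had an F-test adjusted p of 0.0588. Ldha minus Ldhb differed by -0.49 with batch 1 alone, and by -0.67 to -0.52 without 1 array. Pfkp at week 3 was called with batch 2 for week 2 animal 5 (-0.22, adjusted p = 0.0498), and Ldhb at week 10 with the scan-day block in place of batch (0.30, adjusted p = 0.0430). Among the pathway genes Slc16a1, Slc2a3, Bsg, Aldoc, Pgls and Gpd1 kept their call at week 10 against week 2 in 14 of 14 alternatives and 23 of 23 fits without 1 array; Pgam2, Tpi1, Hkdc1, Pdha1, Pdhb, Gbe1, Ugp2 and Slc25a11 lost it with fixed scan-day terms, and Pdk2, Pdha1, Pdhb and Slc25a11 with the replicate block; Pgam2 and Pdha1 lost it without week 10 animal 8, Tpi1 without week 10 animal 6 and Ugp2 without week 10 animal 1. Leaving out the arrays of scan day 1 was also chosen after seeing the data. The causes were not tested.

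Over all tested probe sets the calls moved by over 1.5 times. Week 10 against week 2 gave 2748, and 1523 with scan day fixed. Week 3 against week 2 gave 2570, and 112, 597 and 1158 with scan day as a block in place of batch, beside it, and with scan days 6 and 7 as 1 term. Week 4 against week 3 gave 1839, and 1, 191 and 2 with these and 0 with the actin covariate. Week 5 against week 4 gave 12, with 0 to 369 over the alternatives and 2 to 303 without 1 array; week 10 against week 5 gave 5, with 1 to 16 and 3 to 9. The F-test gave 5085, and 1811, 2199 and 3260 with the scan-day terms and 3345 with the replicate block. Animal numbers do not pair mice of different ages. The scan-day-fixed fit gave no value for week 3, and Eno1 minus Eno2 was not run.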
